A study of Mus musculus with 3 samples.

Results

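Syndecans and glypicans are the main families of heparan sulfate proteoglycans on the cell surface, and transcripts of 9 of their genes were followed in C2C12 muscle cells with and without shRNA against Tead4. The 9 genes were the rows of the read-count table named Sdc1, Sdc2, Sdc3 and Sdc4 (4 syndecans) and Gpc1, Gpc2, Gpc3, Gpc4 and Gpc6 (5 glypicans), out of 20162 genes in the table. C2C12 is a mouse myoblast line whose cells fuse into multinucleated myotubes in low serum. The control shRNA library (ShSC) and the Tead4 shRNA libraries with hairpin A (ShA) and hairpin B (ShB) each came from a lentivirus-infected population kept in puromycin and differentiated for 7 days in medium with horse serum. All 3 populations therefore carried a lentivirus and the drug selection, and each shRNA was represented by 1 library.

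Syndecans are transmembrane core proteins with a short cytoplasmic tail that binds PDZ-domain adaptors and cytoskeletal partners, whereas glypicans are held in the membrane by a glycosylphosphatidylinositol (GPI) anchor. Both carry heparan sulfate chains that bind growth factors, morphogens and matrix proteins and help present them to their receptors. In skeletal muscle, Sdc3 and Sdc4 are known as surface proteins of satellite cells, the stem cells of muscle, and Gpc1 is known to sequester the growth factor Fgf2 in differentiating muscle cells.

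Values given in threes are in the order control, hairpin A, hairpin B. The libraries held 16412139 (control), 19918954 (hairpin A) and 15594305 (hairpin B) counted reads. Tead4 reads went from 1256 in the control library to 397 and 170, in the direction the labels give (log2 fold change -2.35, SE 0.27; adjusted p = 2.82e-06 by edgeR's quasi-likelihood test). Myotube markers were abundant in every library: the summed level of 10 markers was 22767 CPM, the depth-scaled read count, in the control library, 13875 with hairpin A and 16390 with hairpin B. Of these 10, 0 rose and 4 fell (Myh3, Ckm, Tnnt3 and Myog) at an adjusted p under 0.05 by the same test. Of all tested genes, 5.34% rose and 4.48% fell by this rule. Markers of other cell types were low or near 0 for endothelial cells (summed 0.934 to 1.40 CPM), adipocytes (0 to 0.149 CPM, 1 of 5 markers in the table) and macrophages (6.54 to 9.58 CPM, 3 of 6 in the table). Fibroblast markers, 4 of 5 in the table, summed to 652, 1097 and 635 CPM, and neither a rise nor a fall was called for any of them. Library sizes behind every CPM were scaled by TMM, edgeR's trimmed mean.

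Of the 9 genes, 6 were expressed well above the counting limit: all 4 syndecans, Gpc1 and Gpc6. Gpc1, the glypican with the most reads, had 31708 reads in the control library, 38535 with hairpin A and 31438 with hairpin B, or 1975, 1916 and 1995 CPM. Sdc2, a syndecan of mesenchymal cells, had 14960, 17620 and 15048 reads (932, 876 and 955 CPM). The libraries hardly differed for either gene.

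Sdc4, the syndecan found in focal adhesions, had 3478, 4859 and 3961 reads (217, 242 and 251 CPM). Sdc1, best known from epithelial and plasma cells, had 2489, 3582 and 2373 reads (155, 178 and 151 CPM). Sdc3 (ENSMUSG00000025743), the syndecan with the longest ectodomain, had 1038 reads in the control library against 3398 with hairpin A and 1895 with hairpin B (64.6, 169 and 120.3 CPM). Among these 5 genes, Sdc3 had the widest gap between the control library and both Tead4 shRNA libraries. Gpc6 had 796, 955 and 667 reads (49.6, 47.5 and 42.3 CPM), and its control library was the highest.

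The other 3 glypicans were at or near 0. Gpc3, a regulator of hedgehog signalling whose gene lies on the X chromosome, had 0 reads in all 3 libraries. A count of 0 allows a level of up to 3 reads, or 0.187, 0.149 and 0.190 CPM in the control, hairpin A and hairpin B libraries. Gpc4, also X-linked, had 0, 2 and 3 reads, and Gpc2, a glypican of the developing nervous system, had 2, 5 and 0 reads. These 3 genes did not pass the low-count filter, and no change can be read from so few reads.

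**Figure D1:**
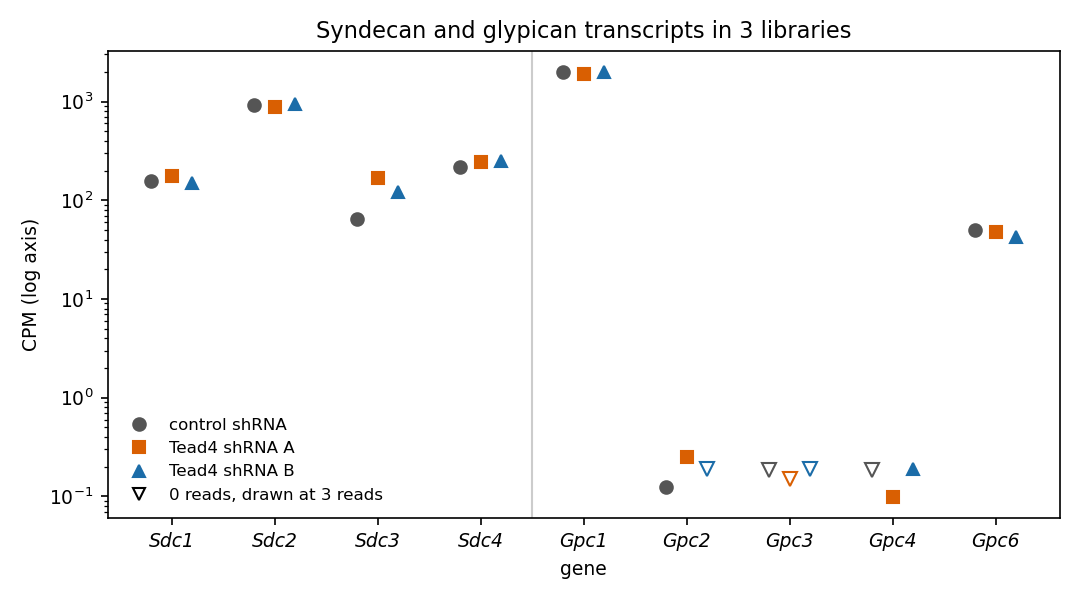
Transcript level of the 9 genes in each library, in TMM-scaled CPM on a log axis, with 1 point per gene and library and open triangles for libraries with 0 reads, drawn at the level of 3 reads. Sdc3 is the expressed gene whose points separate, at 64.6, 169 and 120.3 CPM, while Gpc2, Gpc3 and Gpc4 sit at the counting limit.

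Levels of different genes were compared per kilobase of exon length. In the control library Gpc1 stood highest at 383 CPM per kb, followed by Sdc2 at 264, Sdc4 at 85.04, Sdc1 at 40.7, Sdc3 at 10.8 and Gpc6 at 7.72. The same order held in the hairpin A library (371, 248, 94.8, 46.7, 28.2 and 7.39 CPM per kb) and the hairpin B library (387, 271, 98.7, 39.5, 20.1 and 6.59 CPM per kb). The ranges of neighbouring genes over the 3 libraries did not overlap. By mean level per kb, Gpc1 ranked 104 and Sdc2 173 among the 18701 genes of the table with a known length, while Gpc6 ranked 6523. Per kilobase of coding length, Sdc2 (1537 CPM per coding kb in the control library) came before Gpc1 (1182), so the order of these 2 depends on the length used.

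Sdc3 rose with Tead4 shRNA, and it was the only one of the 6 tested members to pass the test in either direction. Its scaled level was 2.61-fold that of the control library with hairpin A and 1.86-fold with hairpin B. The log2 ratios were 1.39 (95% exact counting interval 1.29 to 1.49) and 0.90 (0.79 to 1.01). Both Tead4 shRNA libraries lay above the control library, and the counting intervals of the 2 ratios did not overlap. In the GENCODE annotation, 463 exonic bases of Sdc3 overlap antisense genes that have no read counts here. Without strand marking, reads of those genes could be counted as Sdc3, and their part was not tested.

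Over both libraries the log2 fold change of Sdc3 was 1.16 (SE 0.25; adjusted p = 0.00404 by edgeR's quasi-likelihood test), a 2.24-fold rise with a 95% interval of the fit from 1.55 to 3.22. Across all genes, 5.34% of 14478 were called higher and 4.48% lower, and the 1 call among 6 members stands beside 9.82% called in either direction. The fold change of Sdc3 was above that of 93.4% of tested genes. It did not meet the stricter rule of a 2-fold rise in both libraries, which 4.63% of tested genes met, since the ratio with hairpin B was below 2-fold.

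The level of Sdc3 also differed between the Tead4 shRNAs. With hairpin A it was 1.40-fold the level with hairpin B (log2 ratio 0.49, counting interval 0.41 to 0.57). This difference compares 2 libraries with no repeat of either. Tead4 itself stood at 78.2 CPM in the control library, 19.7 with hairpin A and 10.8 with hairpin B. A relation between the levels of Tead4 and Sdc3 was not tested. In bulk RNA, more cells that express Sdc3 and more Sdc3 RNA per cell cannot be told apart. Markers of myoblasts and reserve cells moved in both directions, where 9.82% of all tested genes were called in either direction. Of 6 tested markers, Cd34 rose (log2 fold change 1.23, SE 0.27), Myf5 fell (-1.35, SE 0.24) and 4 were not called. Their summed level was 2589 CPM in the control library, 2043 with hairpin A and 2219 with hairpin B, with none of the 6 at 0, and Itga7 alone gave 2357, 1717 and 1905 CPM of it. Without Itga7, left out after its values were seen, the other 5 markers summed to 231, 326 and 314 CPM, and the median log2 fold change of all 6 was 0.54. The part of these markers, and of the 4 myotube markers that fell, in the change of Sdc3 was not tested.

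Sdc4 moved slightly upward in both libraries. Its ratios to the control library were 1.12-fold with hairpin A and 1.16-fold with hairpin B (log2 0.16, counting interval 0.09 to 0.22, and 0.21, 0.15 to 0.28). The test did not call it: the log2 fold change was 0.19 (SE 0.23; adjusted p = 0.731 by edgeR's quasi-likelihood test), and the 95% interval of the fit ran from 0.813-fold to 1.59-fold. Sdc3 and Sdc4 were the 2 of 6 members whose counting intervals excluded no change in the same direction with both shRNAs, as they did for 43.0% of all tested genes.

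Sdc1 had log2 ratios of 0.20 (counting interval 0.13 to 0.27) for A and -0.04 (-0.12 to 0.04) for B, an interval that includes no change. Its log2 fold change over both was 0.08 (SE 0.23), with an interval of 0.760-fold to 1.48-fold. Sdc2 had log2 ratios of -0.09 (-0.12 to -0.06) and 0.04 (0.0029 to 0.07). The log2 fold change of Sdc2 was -0.03 (SE 0.24), with an interval of 0.693-fold to 1.39-fold. For both genes a change of 2-fold lies outside the interval of the fit, and changes inside these intervals could not be resolved with these libraries.

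The glypicans showed no called change. Gpc1 had log2 ratios of -0.04 (counting interval -0.07 to -0.02) with hairpin A and 0.01 (-0.0078 to 0.04) with hairpin B. Its log2 fold change was -0.01 (SE 0.24), and the interval of the fit ran from 0.697-fold to 1.41-fold. Gpc6 had log2 ratios of -0.06 (-0.20 to 0.08) and -0.23 (-0.38 to -0.08) and a log2 fold change of -0.14 (SE 0.22), with an interval of 0.656-fold to 1.25-fold. The signs of Sdc2 and Gpc1 over both libraries turned to 0.02 and 0.03 with total-count scaling, so neither has a direction.

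The counting interval excluded no change for 5 of the 6 members with hairpin A and for 4 with hairpin B, against 65.4% and 57.7% of all tested genes. Between hairpins A and B the interval excluded equal levels for 5 members, all but Sdc4, against 50.6% of tested genes. The median log2 fold change of the 6 members was 0.04, beside 0.02 for all tested genes.

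**Figure D2:**
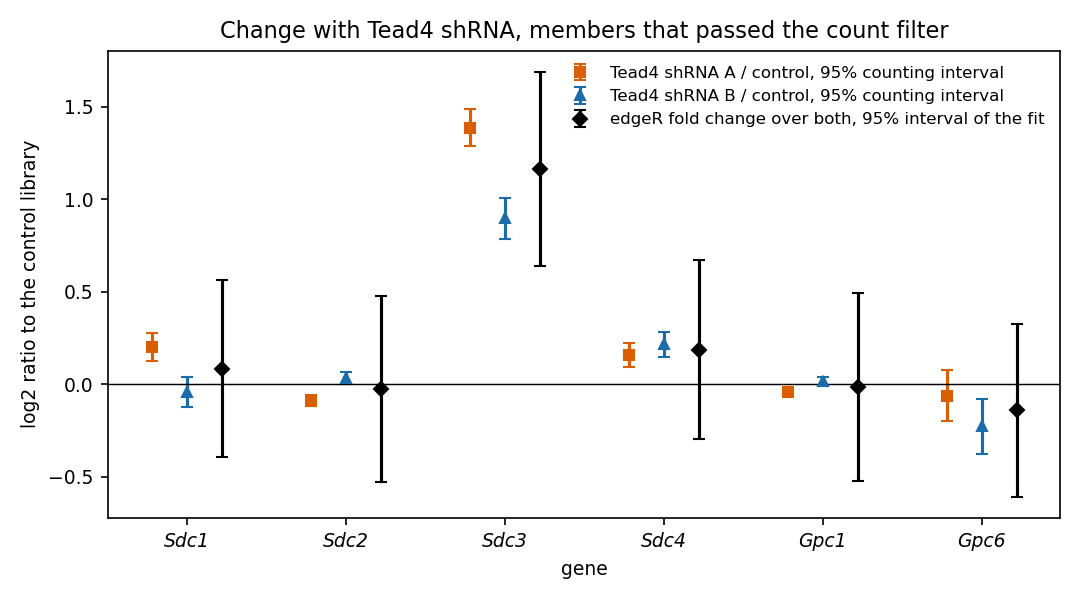
Log2 ratio to the control library for the 6 members that passed the count filter: squares for hairpin A and triangles for hairpin B with 95% counting intervals, diamonds for the edgeR fold change over both libraries with the 95% interval of the fit. The diamond of Sdc3 stands at 1.16 with its interval above 0, and the intervals of the other 5 members include 0.

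The make-up of the syndecan reads shifted toward Sdc3. Sdc3 took 4.73% of syndecan reads in the control library (95% exact binomial interval 4.45 to 5.01), 11.5% with hairpin A (11.2 to 11.9) and 8.14% with hairpin B (7.79 to 8.50). Sdc2 went from 68.1% (67.5 to 68.7) to 59.8% (59.2 to 60.4) and 64.6% (64.0 to 65.3). Sdc4 took 15.8%, 16.5% and 17.0%, and Sdc1 took 11.3%, 12.2% and 10.2%. These shares are of reads and are not corrected for transcript length. Per kilobase, Sdc3 made up 2.69%, 6.75% and 4.68% of the syndecan level in the 3 libraries.

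The syndecan total hardly moved. The 4 genes together had 1368, 1464 and 1477 CPM in the control, hairpin A and hairpin B libraries, or 1.07-fold and 1.08-fold the control level. Among the glypicans, Gpc1 took 97.5%, 97.6% and 97.9% of reads and Gpc6 2.45%, 2.42% and 2.08%. The glypican total was 2024 CPM in the control library, 1963 with hairpin A and 2038 with hairpin B.

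**Figure D3:**
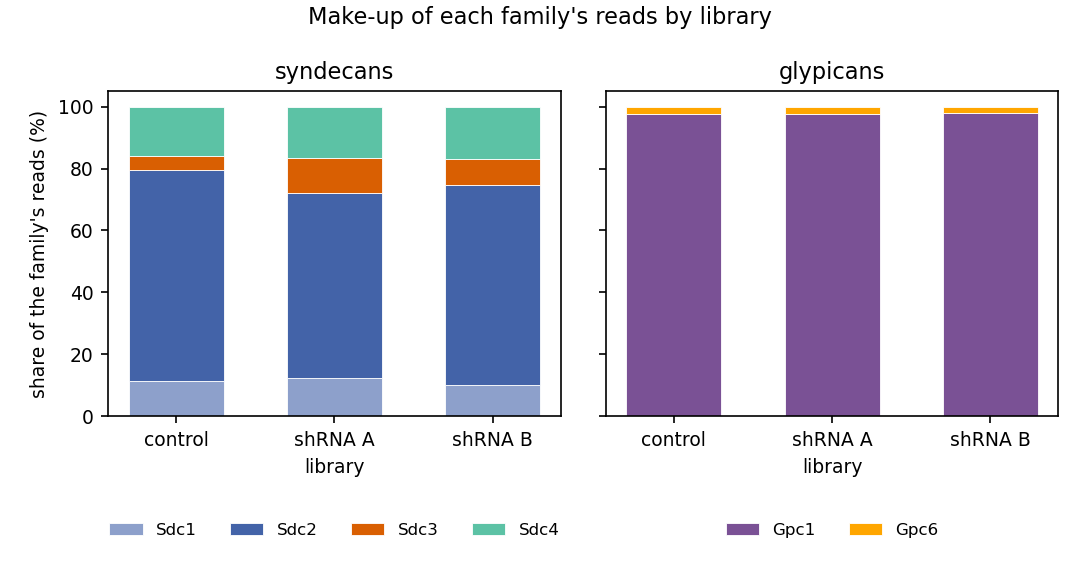
Share of the reads of each family taken by each gene, in percent, with 1 bar per library and the families in separate panels. The Sdc3 segment widens from 4.73% in the control library to 11.5% and 8.14%, and Gpc1 fills 97.5% to 97.9% of the glypican bars; Gpc2, Gpc3 and Gpc4 are too small to be seen.

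Promoter sequence is shown for Sdc3, the member that changed, beside Sdc1 and Sdc4, syndecans that were not called. TEAD factors bind the element GGAATG, so each window was searched for it on both strands. The sequences are from RefSeq (GRCm38.p6), are the 250 bases before the annotated start, written 5′ to 3′ along the gene, and cover chr4:130792287-130792536 (plus strand) for Sdc3, chr12:8771146-8771395 (plus strand) for Sdc1 and chr2:164443189-164443438 (minus strand) for Sdc4. Capitals mark the GC box GGGCGG on either strand, a motif chosen after the windows had been read.
Sdc3: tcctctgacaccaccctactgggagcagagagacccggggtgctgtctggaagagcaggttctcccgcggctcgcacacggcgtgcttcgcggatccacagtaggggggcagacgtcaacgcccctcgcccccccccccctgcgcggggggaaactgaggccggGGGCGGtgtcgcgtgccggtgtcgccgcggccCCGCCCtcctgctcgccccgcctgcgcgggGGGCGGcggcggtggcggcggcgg
Sdc1: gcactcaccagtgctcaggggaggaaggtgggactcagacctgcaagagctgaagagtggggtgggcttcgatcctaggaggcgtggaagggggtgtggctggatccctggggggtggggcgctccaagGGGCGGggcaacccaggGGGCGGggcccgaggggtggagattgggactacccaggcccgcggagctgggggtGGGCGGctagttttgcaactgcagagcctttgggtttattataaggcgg
Sdc4: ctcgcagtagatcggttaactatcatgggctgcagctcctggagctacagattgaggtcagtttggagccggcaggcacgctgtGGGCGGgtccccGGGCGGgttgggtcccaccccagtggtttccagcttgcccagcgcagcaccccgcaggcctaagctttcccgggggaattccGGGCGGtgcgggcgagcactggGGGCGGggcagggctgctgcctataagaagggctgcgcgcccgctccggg
In the windows of 250 bases before to 50 bases after the start, which were matched for 6 of the 9 members (Sdc1, Sdc3, Sdc4, Gpc2, Gpc3 and Gpc4), GGAATG was present for Gpc4 and not for the other 5. Of all 32851 such windows, 14.7% hold it. A match is a description of the letters, and no match says only that the element is not in this window. GGGCGG occurred 3 times before the start of Sdc3, 3 times before Sdc1 and 4 times before Sdc4, and 32.7% of all stretches of this kind hold at least 1. The Sdc3 stretch had a G and C content of 76.4% and 32 CG dinucleotides, against 66.0% and 10 for Sdc1, 68.0% and 19 for Sdc4, and medians of 52.4% and 6 over all windows.

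The genes whose ratios lay nearest to those of Sdc3, among 9894 genes with a mean of at least 5 CPM, were Pole, Evc and Rin2. Pole, a subunit of DNA polymerase epsilon, had 46, 150 and 83 reads and log2 ratios of 1.38 and 0.88 with hairpins A and B. Evc, a ciliary protein, had 1.40 and 0.88, and Rin2, an exchange factor for Rab5, had 1.39 and 0.92. Likeness here is the distance between pairs of log2 ratios (0.02, 0.02 and 0.03), over 2 libraries that share 1 control. The counting interval of Sdc3 alone (1.29 to 1.49 with hairpin A) is wider than these distances, so which genes lie nearest is not resolved.

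Genes that build, trim or use the sugar chains were described from 11 lists of 125 genes, of which 102 were tested. Of these, 19 were higher and 3 were lower with Tead4 shRNA, 21.6% against 9.82% of all tested genes, and their median log2 fold change was 0.30. Among the 19, Fgf2, Fgfr2 and Ptn had 0 reads in the control library, and 16 are left without them. Among the 97 genes with at least 10 reads in the control library, a limit set after the values were seen, 16 were higher and 3 were lower, 19.6% against 9.77% of all tested genes above the same limit. The lists were chosen with earlier results of these data known, so these shares cannot be read as an excess over all genes. The lists are described by counts and medians alone, and the same limit holds for the count of each list below.

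The enzymes that build the linkage region of the chains showed no called change. Of 5 tested genes of the tetrasaccharide linkage region, 0 passed the test (median log2 fold change -0.04). Over all tested genes 9.82% were called, so 0 calls in so short a list do not set it apart. The same holds for the other lists of this paragraph. The linkage kinase Fam20b had 2247, 2882 and 2240 reads (log2 fold change 0.03, SE 0.22), and the galactosyltransferase B4galt7 had 682, 578 and 560 (-0.40, SE 0.23). Sulfate donor supply likewise had 0 of 7 called (median 0.24), with the phosphatase Impad1 at 0.13 (SE 0.24) and the sulfate donor synthase Papss1 at -0.10 (SE 0.23). GPI anchor attachment, the step that glypicans depend on, had 0 of 7 called (median 0.20), with the transamidase subunits Pigs and Pigt at 0.42 (SE 0.22) and 0.23 (SE 0.22).

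On the list of heparan sulfate chain polymerisation only Extl1 was called, and it fell. Extl1, an exostosin-like glycosyltransferase, had 973 reads in the control library, 92 with hairpin A and 111 with hairpin B. Its log2 fold change was -3.39 (SE 0.26; adjusted p = 5.62e-09 by edgeR's quasi-likelihood test), and both Tead4 shRNA libraries lay far below the control library. It was 1 lower and 0 higher of 5 tested, beside 4.48% lower and 5.34% higher of all tested genes. The list's median was 0.24. The chain polymerase subunits Ext1 and Ext2, named after their values were seen, had log2 fold changes of 0.05 (SE 0.23) and 0.37 (SE 0.24).

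Of 10 tested genes of heparan sulfate sulfation and epimerisation, 1 fell and 0 rose (median 0.41). This share was near the 9.82% of all tested genes called in either direction. Glce, the epimerase that turns glucuronic into iduronic acid, had 2524, 1480 and 1077 reads, and its log2 fold change was -1.15 (SE 0.21; adjusted p = 0.00105 by edgeR's quasi-likelihood test). Its log2 ratio was -1.10 for hairpin A and -1.20 for hairpin B. The N-deacetylase and sulfotransferase Ndst1 (0.44, SE 0.23) and the 2-O-sulfotransferase Hs2st1 (0.38, SE 0.24), named after their values were seen, did not pass.

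Chondroitin sulfate enzymes, whose chains Sdc1 and other syndecans can also carry, were higher in 6 of 14 tested members. They were lower in 0, with a median of 0.57. Over all tested genes, 5.34% were higher and 4.48% lower, and this list too was chosen with earlier results known. The sulfotransferases Chst15 and Chst12 rose by 1.15 (SE 0.24) and 1.54 (SE 0.32) on the log2 scale, the polymerising factor Chpf2 by 0.81 (SE 0.24) and the chain-initiating Csgalnact1 by 0.94 (SE 0.29). Reads of Chst12 went from 161 to 758 with hairpin A and 321 with hairpin B, and those of Chst15 from 420 to 1163 and 924. The call of Csgalnact1 ended under RLE and upper-quartile scaling, with DESeq2 and with limma-voom, and that of Chpf2 with DESeq2.

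Genes that release or edit the chains and core proteins were higher in 3 of 11 tested members and lower in 0 (median 0.59). The shares over all tested genes were 5.34% higher and 4.48% lower. Sulf2, an extracellular endosulfatase that removes sulfate groups from heparan sulfate, had 346 reads in the control library against 1663 and 774 (log2 fold change 1.61, SE 0.29). The matrix proteases Mmp14 and Mmp2, of which Mmp14 can cleave syndecan ectodomains, rose by 1.46 (SE 0.29) and 1.07 (SE 0.29). For each of these 3 the hairpin A library was the highest, as it was for Sdc3. That order was not particular to this list: Chst12 and Bmp4 also had it, while Hbegf was highest with hairpin B. The sheddases Adam10 (0.08, SE 0.23) and Adam17 (-0.03, SE 0.22), named after their values were seen, did not pass.

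Partners of the syndecan tail were higher in 2 of 13 tested members and lower in 0 (median 0.21). For this list and the next, the shares over all tested genes were 5.34% higher and 4.48% lower. The Rac exchange factor Tiam1 rose by 1.22 (SE 0.30) and the actin cross-linker Actn1 by 0.89 (SE 0.27); DESeq2 ended the call of Tiam1 and RLE scaling that of Actn1. Syntenin (Sdcbp), the PDZ adaptor of all syndecans, had 2327, 3254 and 3055 reads and did not pass (0.29, SE 0.23; named after its value was seen). Of 7 other carriers of heparan sulfate, the collagen Col18a1 and the coreceptor Nrp1 rose, by 0.84 (SE 0.23) and 0.83 (SE 0.23), and 0 fell; both calls ended with DESeq2.

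Among ligands that bind heparan sulfate, 5 of 11 tested were higher and 1 was lower, with a median of 1.39. Over all tested genes the shares were 5.34% higher and 4.48% lower. Fgf1, Fgf2, Ptn and Wnt5a had at most 2 reads in the control library and passed the filter through the Tead4 shRNA libraries. Among the 7 ligands with at least 10 control reads, 3 were higher and 1 was lower, with a median of 0.86. Hgf, the ligand of Met, had 173, 573 and 332 reads, a log2 fold change of 1.20 (SE 0.27). Hbegf, a growth factor of the EGF family, rose by 1.53 (SE 0.26) and Bmp4 by 1.39 (SE 0.27), while the angiogenic factor Vegfa went from 3534 to 1462 and 1083 reads and fell by 1.64 (SE 0.21). Fgf2, named like Ptn after its values were seen, had 0 reads in the control library, 90 with hairpin A and 64 with hairpin B. It was 23.9-fold and 21.7-fold higher against a floor of 3 reads in the control library. The lower limits of the 95% exact counting intervals were 19.1-fold and 17.2-fold.

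Ptn had 0, 30 and 12 reads, 7.98-fold and 4.08-fold higher against that floor, with exact lower limits of 6.10-fold and 2.83-fold. The receptor Fgfr2 had 0, 98 and 55 reads, 26.1-fold and 18.7-fold higher against the same floor, with exact lower limits of 20.8-fold and 14.7-fold. It was the 1 gene called among 12 receptors (median 0.22). With at least 10 control reads, 0 of 11 receptors were called (median 0.18). By comparison, 9.82% of all tested genes were called, and 9.77% of those above the same limit. In all, 37 genes of the table had 0 reads in the control library and at least 10 in each of the other libraries, against 10 genes for hairpin A and 15 for hairpin B. What sets these counts to 0 was not tested. Fgf2, Ptn and Fgfr2 therefore rest on the zero of 1 library.

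**Figure D4:**
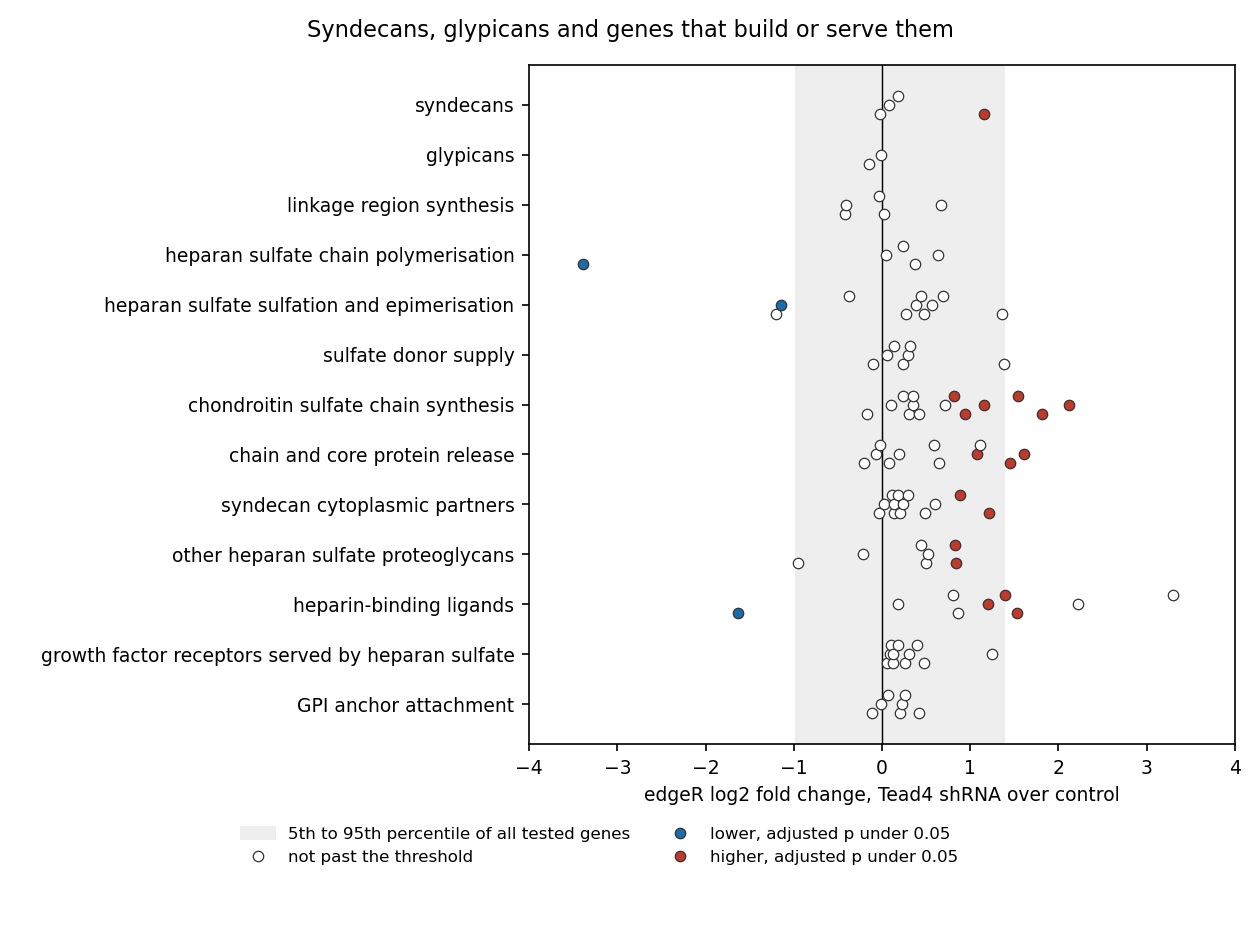
Log2 fold change with Tead4 shRNA (horizontal axis) for each tested gene of the 2 families and the 11 lists, with red for higher and blue for lower at an adjusted p under 0.05 and grey for the 5th to 95th percentile of all tested genes. Sdc3 is the red point among syndecans at 1.16, Extl1 is the blue point at -3.39, and Fgf2, Ptn and Fgfr2 are not drawn because their control library had 0 reads.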

How the data were processed

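Polyadenylated RNA of 3 C2C12 libraries was sequenced as single-end reads, without strand marking, per the labels' protocols. Raw read counts by Ensembl gene were deposited by the authors for each library, with normalized values that the deposited table gives as a score without unit: each equalled the raw count times 1 factor per library (1.00, 0.801 and 1.02 for control, A and B), rounded. Named in the submitters' processing notes, without roles, are mm9, DESeq, TopHat 1.0.12 and Cufflinks 0.8.2; not given in the sources used here is which program counted reads, on which annotation release.

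The tests were run with edgeR 4.0.16 under R 4.3.3 (filterByExpr, 14478 genes; TMM; quasi-likelihood F test of the 2 Tead4 shRNA libraries against the 1 control library; Benjamini-Hochberg over all tested genes; threshold 0.05). This leaves 1 residual degree of freedom (prior degrees of freedom 20.9), and the control library is assumed to vary like the others. The labels name no repeat culture of any shRNA. The fit took the libraries of hairpins A and B as repeats of 1 group. Its p-values, SEs and intervals therefore rest on the spread between these 2 hairpins, pooled with the spread of other genes. Technical differences and differences between the hairpins cannot be told apart in that spread. SE is the absolute log2 fold change over the square root of F. Single-library ratios carry 95% exact (Clopper-Pearson) intervals, which, like the floor of 3 reads, cover counting error only. The script was tested on simulated data.

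Exon and coding lengths and overlaps came from GENCODE M21, a later build (92.8% of identifiers matched), and promoters from RefSeq. In GENCODE, 977 exonic bases of Gpc1 overlap Ankmy1 (52, 28 and 28 reads), 463 of Sdc3 overlap antisense genes and 2376 of Gpc2 overlap Gm43720. Members and lists were chosen with earlier results of these data known. The naming rule took all members, Tead4, the 4 called members with the highest CPM of each list (2 where none was called) and the 3 genes nearest to Sdc3; Fgf1, Fgf2, Ptn, Wnt5a, Ext1, Ext2, Ndst1, Hs2st1, Adam10, Adam17, Sdcbp, Hspg2, Agrn, Tgfbr3, Cd44 and the cell type markers fall outside it and were named after their values were seen. Alternatives were other scalings, no filter, DESeq2 1.42.0, limma-voom (limma 3.58.1), leaving out each Tead4 shRNA library, and the newer quasi-likelihood method, coding length, a minimum of 10 control reads and a marker sum without Itga7, all chosen after seeing the data.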

Additional observations from a re-analysis of the deposited data

How the results depend on the processing

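Sdc3 was the 1 member called higher, and 0 were called lower, with RLE, upper-quartile and total-count scaling, without the filter, with DESeq2, with limma-voom and with the newer quasi-likelihood method. Its adjusted p ran from 7.95e-05 to 0.0130 over these fits (edgeR, DESeq2 or limma), and its log2 fold change was 0.90 without hairpin A and 1.39 without hairpin B, values that have no test. Upper-quartile and total-count scaling turned the sign of Sdc2 (0.0144 and 0.0208) and Gpc1 (0.0257 and 0.0320), and total-count scaling that of the Gpc1 ratio with hairpin A (0.0020) and of the Sdc1 ratio with hairpin B (0.0049). These scalings shifted the ratios by 0.04 to 0.05 on the log2 scale. Over the 11 lists, 13 (DESeq2) to 22 (no filter) genes were higher and 3 were lower in every fit. Ranking by coding length from GENCODE placed Sdc2 first and Gpc1 2nd and moved no other member; the coding length from RefSeq proteins was not run. No paired analysis was possible because the control group has 1 library. Gpc2, Gpc3 and Gpc4 had at most 5 reads, so a change in them was not detectable at this depth.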

Other observations

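Of the 7 tested genes on the list of other carriers of heparan sulfate, 5 had different levels with hairpin A and hairpin B by their counting intervals, against 50.6% of all tested genes. The genes of this paragraph were chosen after their values were seen. Hspg2 (perlecan), a proteoglycan of basement membranes, had 972 CPM in the control library, 1019 with hairpin A and 660.1 with hairpin B. Its log2 ratio to the control library was 0.07 for A (95% exact counting interval 0.04 to 0.10) and -0.56 for B (-0.59 to -0.52). Agrn (agrin), which gathers acetylcholine receptors at the synapse, had 573, 1203 and 587 reads, and its ratio was 0.74 for A (0.60 to 0.89) and 0.06 for B (-0.11 to 0.23). Tgfbr3 (betaglycan), a coreceptor of transforming growth factor beta, had 258, 569 and 266 reads, and its ratio was 0.82 for A (0.60 to 1.03) and 0.07 for B (-0.18 to 0.32). Cd44, a hyaluronan receptor, had ratios of 0.47 and 0.57. None of these 4 genes passed the edgeR test over both libraries, and the difference between the hairpins has no replicate check.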
